A study of Danio rerio with 6 samples.

Results

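Male zebrafish (Danio rerio) were kept for 3 weeks in water with 100 nM nonylphenol (NP) or in water with ethanol alone (control), and their livers were profiled by RNA sequencing, with 2 libraries per group. Ethanol was the solvent of the compound, so both groups received it. Each group lived in 1 tank of 80 L with 40 fish. Strain and age are not given in the sources used here, and the labels leave unsaid if 1 fish or several were used per library. Tank and treatment therefore cannot be told apart, and p-values reflect the spread of these 4 libraries alone, which may be technical. The genes described are the 3555 of 31953 gene IDs whose mean normalised read count over the 4 libraries was 20 or more in the authors' comparison of NP with control; 18067 IDs had any read. Those nearest the limit were nucb2b (mean 19.9961) and rap1ab (19.9963) just outside it, and wdr47b (20.0447) just inside. A gene "rose" or "fell" in NP where its adjusted p in the authors' deposited table was under 0.05. By that rule 160 of the 3555 genes changed (4.5%): 71 rose (2.0%) and 89 fell (2.5%). Genes of pancreatic digestive enzymes supplied 24 of the rises, and outside that list 47 of 3526 genes rose (1.33%) and 89 fell (2.52%).

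Nonylphenol is an alkylphenol left when certain surfactants break down, and it can bind estrogen receptors. In egg-laying vertebrates, estrogen acting through these receptors in the liver switches on vitellogenins, the yolk precursor proteins that females export to the ovary; males carry the genes but normally make little. The liver also makes most plasma proteins, including those of the acute phase, whose levels move with inflammation. Digestive proteases, lipases and amylases are made by acinar cells of the exocrine pancreas, which in fish is diffuse tissue along the gut and close to the liver.

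The authors' deposited table holds no value per library, so whole reads per library were recovered from its means for 3432 of the 3555 genes. The libraries are called A and B within each group, A having the larger size factor; neither can be tied to a particular sample. Size factors (relative depths in the authors' normalisation) were 0.866 in NP A and 0.841 in NP B, against 1.52 in control A and 0.987 in control B. Reads over all recovered genes ranged over the 4 libraries between 381350 (control B) and 613441 (control A). The control libraries differed more from each other than the NP libraries did: the median fold between libraries of a group was 1.36 in NP and 1.76 in control. Hepatocyte markers were abundant, with 23 of 24 at a mean of 20 or more and transferrin (tfa), the iron carrier of plasma, at a mean of 61346 normalised reads. In tissue RNA, fewer cells of a type and less RNA per cell cannot be told apart.

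**Figure D1:**
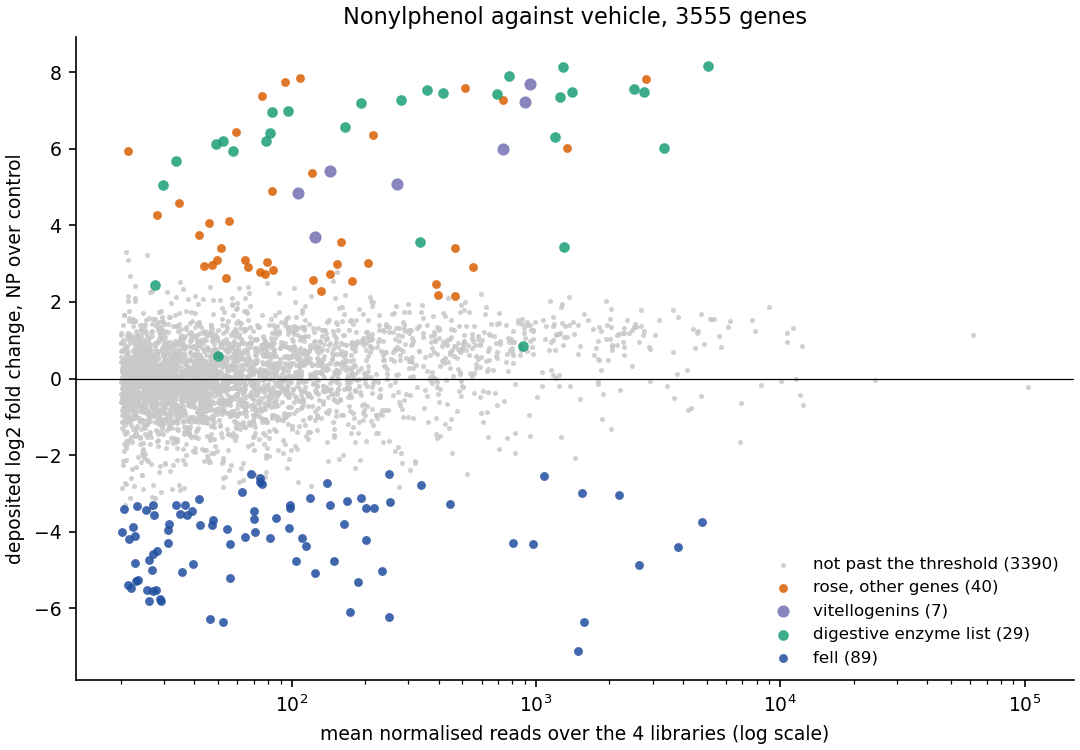
Deposited log2 fold change of NP over control (vertical axis) against the mean normalised reads over the 4 libraries (horizontal axis, log scale) for the 3555 genes, each point 1 gene. Most of the 29 digestive enzyme genes and the 7 vitellogenins lie high in the plot, though the digestive list reaches down to 0.58 (pla2g1b), and the 89 genes that fell reach a log2 fold change of -7.11.

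Digestive enzyme genes were the largest group that rose. Of the 29 members of the list at a mean of 20 or more, 24 rose, 0 fell and 5 did not pass, against 2.0% of all 3555 genes that rose. The median log2 fold change of the list was 6.57, against 0.06 over all 3555 genes, by the authors' deposited table. The trypsin-type protease prss59.1 had 3388 reads in NP A and 13699 in NP B, against 14 in control A and 32 in control B. Pancreatic elastase ela2 had 968 and 1661 reads in NP A and NP B, against 1 and 7 in control A and control B. Chymotrypsinogen ctrb1 had 1514 and 7838 reads in NP A and NP B, against 3 and 29 in control A and control B. In each of these genes both NP libraries lay far above both controls, and NP B was the higher NP library. The rise in the authors' deposited table was 8.16 ± 0.80 for prss59.1 (log2, authors' SE; adjusted p = 1.12e-20), 7.90 ± 0.81 for ela2 (adjusted p = 9.82e-19) and 7.48 ± 0.91 for ctrb1 (adjusted p = 8.05e-14).

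The rise covered proteases, lipases and amylases alike. The trypsin gene try had 2143 and 9001 reads in NP A and NP B, against 74 and 93 in control A and control B, more control reads than prss59.1 had. Amylase amy2a, which splits starch, had 919 and 3097 reads in NP A and NP B, against 1 and 31 in control A and control B. Carboxypeptidase cpb1, which trims peptides from their C-terminal end, had 303 and 903 reads in NP A and NP B, against 0 and 4 in control A and control B. The bile salt-activated lipases cel.1 and cel.2 rose by 6.57 ± 0.90 and 7.18 ± 0.90 (log2, authors' SE) in the authors' deposited table. Other members that rose included prss59.2, the chymotrypsin genes ctrl and zgc:112160, the elastases ela2l, CELA1 (1 of 7), CELA1 (4 of 7) and CELA1 (5 of 7), the carboxypeptidases cpa1, cpa4 and cpa5, and the amylase zgc:92137. Also on the list and risen were the zymogen granule proteins sycn.1 and sycn.2, the astacin-type protease c6ast3 and endou, which encodes an endoribonuclease. Among the 24 that rose, the rise in the authors' deposited table lay between 5.04 (endou) and 8.16 (prss59.1). Similar copies within these families may share reads, so the division among copies is uncertain.

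Normalised reads summed over the 29 genes came to 21663 in NP A and 76102 in NP B, against 500 in control A and 1205 in control B. These genes held 4.40% of the recovered reads in NP A and 13.9% in NP B, against 0.124% in control A and 0.312% in control B. Recovered genes made up 43.7% of the summed mean normalised reads, so the shares of all reads would be smaller. NP B exceeded NP A in 28 of the 29 genes, with a median ratio of 3.47, and control B exceeded control A in 27. Both NP libraries were above both controls in 28 of the 29, a pattern seen in 27.9% of the 3432 recovered genes. Genes such as ela2 and cpb1 reached the limit on the mean only through their NP reads. The limit itself thus favoured this pattern, and the count is no separate support for a rise.

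The 5 members that did not pass were of different kinds. For the elastase ela3l, 1000 and 3409 reads stood in NP A and NP B, against 0 and 15 in control A and control B, yet the authors' deposited table gave 3.43 ± 1.43 with adjusted p = 0.287. The chymotrypsin gene zgc:136461 had 289 and 842 reads in NP A and NP B, against 0 and 10 in control A and control B (3.56 ± 1.41 in the authors' deposited table, adjusted p = 0.226). In both genes each NP library was far above each control. In CELA1 (6 of 7), 92 of the reads were in NP B, with 1 in NP A and 0 in both controls (adjusted p = 0.706 in the authors' deposited table). The amylase copy zgc:66313 had 1137 and 837 reads in NP A and NP B, against 642 and 801 in control A and control B, and phospholipase pla2g1b had 37 and 66 reads in NP A and NP B, against 12 and 69 in control A and control B. For these copies the authors' deposited table gave 0.85 ± 0.66 and 0.58 ± 0.91, and pla2g1b overlapped between the groups.

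Several genes outside the list shared the order of libraries. The unnamed gene zgc:92590 had 2131 and 7380 reads in NP A and NP B, against 2 and 24 in control A and control B, and rose by 7.81 ± 0.89 in the authors' deposited table (adjusted p = 1.83e-15). The genes named si:ch211-240l19.5, si:ch211-240l19.6, si:ch211-240l19.7 and si:ch211-240l19.8 rose by 7.58, 7.28, 6.43 and 6.02 on the log2 scale of the authors' deposited table. The trypsin inhibitor family gene spink4 had 55 and 219 reads in NP A and NP B, against 5 and 4 in control A and control B (4.89 ± 0.87 in the authors' deposited table). The peptidoglycan recognition protein gene pglyrp6 had 42 and 214 reads in NP A and NP B against 0 in both controls, at least 126-fold higher when the control group is set to a floor of 3 reads (40.5-fold without NP B). In all of these genes NP B was again the higher NP library.

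Other markers of pancreas were few. Among transcription factors and helpers of acinar cells, 4 genes had a mean of 20 or more, and spink4 was the 1 that rose, against 2.0% of all genes described. The transcription factors ptf1a, bhlha15 and rbpjl, named here after their values were seen, had a mean of 0. The list's summed normalised reads were 309 in NP A and 683 in NP B, against 58.0 in control A and 384 in control B. Of its other members, gatm had 175 and 311 reads in NP A and NP B, against 0 in control A and 154 in control B. The reads of nr5a2 were 38 and 44 in NP A and NP B, against 83 in control A and 58 in control B. In cuzd1.1, 163 reads were in control B and 0 elsewhere, and in cuzd1.2, below the limit on the mean, 19 were in control B and 0 elsewhere. The acinar disulfide isomerase pdia2, at a mean of 15.9, had 12 and 40 reads in NP A and NP B, against 0 and 2 in control A and control B. Though below the limit on the mean, pdia2 passed the authors' threshold as a rise (log2 fold change 3.99, adjusted p = 0.0188, authors' deposited table). Islet markers were near 0: 0 of 8 with reads reached a mean of 20, their reads summed to 3 in NP A and 15 in NP B, against 8 in control A and 9 in control B, and insulin (ins) had 4 reads in NP B and 0 elsewhere. Whether the digestive enzyme reads came from pancreatic cells in the samples was not tested.

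Vitellogenins rose in 7 of 7 cases (list median 5.42, log2, authors' deposited table), against 2.0% of all genes described. The vtg2 gene had 2656 and 578 reads in NP A and NP B, against 7 and 6 in control A and control B. For vtg1 the reads were 2439 and 647 in NP A and NP B, against 11 and 8 in control A and control B. For vtg4 they were 1896 and 591 in NP A and NP B, against 12 and 24 in control A and control B. Here NP A was the higher NP library, the reverse of the digestive enzymes, and the groups did not overlap. All 7 list members with reads reached the limit on the mean, so it left out none of them. Genes such as vtg2 and vtg1 reached it only through their NP reads, so the count is no separate support for a rise. In the authors' deposited table the rises were 7.69 ± 0.81 for vtg2 (adjusted p = 3.49e-18), 7.23 ± 0.77 for vtg1 (adjusted p = 9.73e-18) and 5.98 ± 0.77 for vtg4 (adjusted p = 3.52e-12).

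The other vitellogenins were less abundant. The vtg7 gene had 595 and 311 reads in NP A and NP B, against 21 and 10 in control A and control B. The vtg3 gene had 296 and 187 reads in NP A and NP B, against 2 and 8 in control A and control B. The vtg5 gene had 327 and 77 reads in NP A and NP B, against 19 and 16 in control A and control B, and its rise of 3.69 ± 0.80 in the authors' deposited table was the lowest of the 7. The vtg6 gene, with 282 and 74 reads in NP A and NP B, against 9 and 4 in control A and control B, rose by 4.84 ± 0.83 in the authors' deposited table. NP A exceeded NP B in all 7, by between 1.54 and 4.46 times. Summed over the 7 genes, normalised reads were 9803 in NP A and 2931 in NP B, against 53.4 in control A and 77.0 in control B. These genes resemble each other, so the division of reads among them is uncertain.

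Of 16 other estrogen targets with reads, 3 had a mean of 20 or more and nots was the 1 that rose, against 2.0% of all genes described. The gene nots reached that limit only through its NP reads. Nothepsin, the aspartic protease that nots encodes and that is known in zebrafish liver as female-biased, had 512 and 220 reads in NP A and NP B, against 1 and 6 in control A and control B (6.35 ± 0.85 in the authors' deposited table, adjusted p = 2.41e-11). The estrogen receptor gene esr2b had 98 and 7 reads in NP A and NP B, against 47 and 16 in control A and control B, and missed the threshold (log2 fold change 1.19, adjusted p = 0.963, authors' deposited table). The receptor gene esr1, itself an estrogen target, stood at a mean of 4.50, with 13 reads in NP A and 0 in NP B, against 3 in control A and 1 in control B. Receptor levels thus overlapped between the groups.

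**Figure D2:**
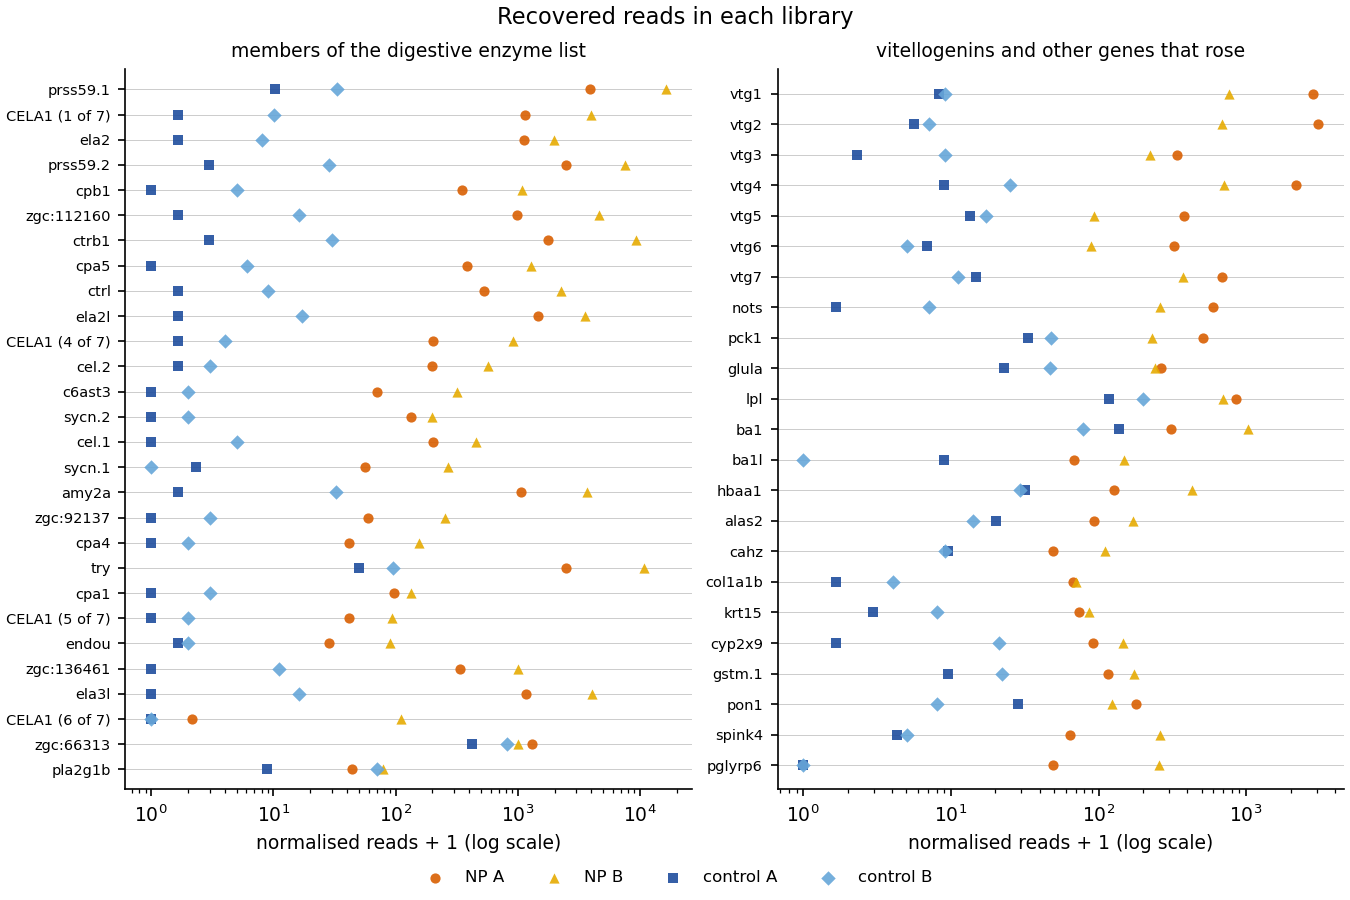
Recovered reads in each library, divided by its size factor, plus 1 (horizontal axes, log scale), for named members of the digestive enzyme list in order of fold change (left) and for vitellogenins and other genes that rose (right). NP B lies right of NP A in every digestive gene drawn except zgc:66313 and left of it in all 7 vitellogenins.

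Genes of red blood cells were among the rises. Of 9 members at a mean of 20 or more, 5 rose and 0 fell (list median 2.47, log2, authors' deposited table), against 2.0% of all genes described that rose. The beta globin gene ba1 had 269 and 871 reads in NP A and NP B, against 207 and 76 in control A and control B. The alpha globin gene hbaa1 had 109 and 362 reads in NP A and NP B, against 47 and 28 in control A and control B. The heme synthesis gene alas2 had 80 and 144 reads in NP A and NP B, against 29 and 13 in control A and control B. NP B was the highest library for each of these genes, and in the authors' deposited table they rose by 2.47 ± 0.74, 2.98 ± 0.76 and 2.79 ± 0.76. The globin ba1l and the carbonic anhydrase cahz also rose, by 4.10 ± 0.93 and 2.94 ± 0.83 in the authors' deposited table. Of 18 list members with reads, 9 reached the limit on the mean. Genes such as ba1l and cahz reached it only through their NP reads, so the limit favoured rises in this list. The 9 genes together had normalised reads of 815 in NP A and 2194 in NP B, against 289 in control A and 196 in control B. Globin copies may share reads, and the amount of blood in each liver was not tested.

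Single enzymes of glucose, nitrogen and lipid handling were among the other rises. Phosphoenolpyruvate carboxykinase pck1, which commits carbon to glucose synthesis, had 444 and 192 reads in NP A and NP B, against 49 and 46 in control A and control B. Glutamine synthetase glula had 230 and 202 reads in NP A and NP B, against 33 and 45 in control A and control B. Lipoprotein lipase lpl, which releases fatty acids from circulating lipoproteins, had 736 and 581 reads in NP A and NP B, against 178 and 198 in control A and control B. The NP libraries lay close together in glula and lpl, and the groups did not overlap in any of the 3 genes. In the authors' deposited table the rises were 3.02 ± 0.71 for pck1 (adjusted p = 0.00153), 2.73 ± 0.71 for glula (adjusted p = 0.00667) and 2.15 ± 0.66 for lpl (adjusted p = 0.0379). Around them, pck1 was the 1 of 31 glycolysis and gluconeogenesis genes that rose, and glula the 1 of 50 for amino acid breakdown and the urea cycle. In turn, lpl was the 1 of 24 for lipoproteins and lipid transport, where abca1b, a cholesterol exporter, fell. Of all genes described, 2.0% rose and 2.5% fell, so single calls like these say little about their lists.

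Detoxification genes moved singly. The cytochrome P450 gene cyp2x9 rose, with 79 and 123 reads in NP A and NP B, against 1 and 20 in control A and control B, and cyp3c3 fell, with 3 and 4 reads in NP A and NP B, against 364 and 9 in control A and control B; the other 30 of 32 P450 genes did not pass. The glutathione transferase gstm.1 was the 1 of 23 conjugation genes that rose, with 99 and 146 reads in NP A and NP B, against 13 and 21 in control A and control B (3.03 ± 0.77 in the authors' deposited table, adjusted p = 0.00496). Paraoxonase pon1, an esterase of plasma lipoproteins, had 155 and 103 reads in NP A and NP B, against 42 and 7 in control A and control B. These 3 rises had NP libraries within 2 times of each other. With 2.0% of all genes described rising and 2.5% falling, 1 call in a list says little about that list.

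Further rises included structural and signalling genes. The collagen gene col1a1b had 57 and 58 reads in NP A and NP B, against 1 and 3 in control A and control B, and the keratin krt15 had 63 and 72 reads in NP A and NP B, against 3 and 7 in control A and control B. Their rises in the authors' deposited table were 4.59 ± 0.94 and 3.75 ± 0.87. The growth-control kinase mtor had 147 reads in NP A and 11 in NP B, against 14 in control A and 6 in control B. NP A held most of its reads, and its rise in the authors' deposited table was 3.11 ± 0.96 (adjusted p = 0.0418). The lysolipid transporter mfsd2ab, the adenylate kinase ak4, the junction protein jam3b, the prostaglandin reductase ptgr1 and the matrix protein tgfbi rose by between 2.19 and 2.92 on the log2 scale of the authors' deposited table. Of the 40 genes that rose outside digestive enzymes and vitellogenins, 16 had NP libraries within 2 times of each other, 16 had NP B over 2 times NP A and 8 had NP A over 2 times NP B.

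Plasma and inflammation genes led the falls. Haptoglobin (hp), which binds free haemoglobin, had 3 and 18 reads in NP A and NP B, against 7376 and 1058 in control A and control B. Hepcidin (hamp), the hormone that limits iron release, had 1 and 3 reads in NP A and NP B, against 974 and 46 in control A and control B. Complement component C7 (2 of 2), part of the membrane attack complex, had 19 and 16 reads in NP A and NP B, against 9161 and 214 in control A and control B. Both controls exceeded both NP libraries, and control A was by far the higher control. The authors' deposited table gave falls of -7.11 ± 0.85 for hp (log2; adjusted p = 2.35e-14), -6.08 ± 0.99 for hamp (adjusted p = 1.67e-07) and -6.35 ± 0.94 for C7 (2 of 2) (adjusted p = 2.98e-09).

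Of 54 complement and acute phase genes, 7 fell and pglyrp6 rose (list median -0.37, log2, authors' deposited table), against 2.5% of all genes described that fell. The chemotaxin lect2l had 88 and 26 reads in NP A and NP B, against 5279 and 289 in control A and control B, and the pentraxin crp4 had 2 and 21 reads in NP A and NP B, against 298 and 168 in control A and control B. The hemopexin copy HPX (2 of 2), at -3.05 ± 0.80, and the complement factor B-like gene zgc:158446, at -3.41 ± 1.03 (log2, authors' deposited table), also fell. The acute phase gene saa, serum amyloid A, named here after its values were seen, had 0 reads in both NP libraries, against 466 in control A and 3 in control B, and missed the threshold (log2 fold change -2.56, adjusted p = 0.658, authors' deposited table). The fibrinogen chains fga and fgb gave -0.70 and -0.17 in the authors' deposited table, neither past the threshold.

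Interferon response genes fell in 5 of 15 cases and rose in 0 (list median -2.33, log2, authors' deposited table). Over all genes described, 2.5% fell. The signal transducer stat1b had 0 reads in both NP libraries, against 157 in control A and 5 in control B, at least 30.9-fold lower (2.88-fold without control A). The membrane protein gene IFITM10 had 4 reads in each NP library, against 1098 in control A and 16 in control B. The antiviral GTPase mxc had 2 and 5 reads in NP A and NP B, against 597 and 15 in control A and control B. In these genes control A carried nearly all of the control reads. Of 58 list members with reads, 15 reached the limit on the mean. Genes such as stat1b reached it only through their control reads, so the limit favoured falls in this list. The cytokine signal suppressor socs1a and the interferon-induced gene si:dkeyp-9d4.2 were the other members that fell. Summed normalised reads of the 15 genes were 244 in NP A and 265 in NP B, against 3330 in control A and 476 in control B, so control B was above both NP libraries but far nearer to them.

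Macrophage and antigen presentation genes fell in 7 of 18 cases and rose in 0 (list median -2.13, log2, authors' deposited table). The share that fell over all genes described was 2.5%. The class II antigen chain mhc2dab had 0 reads in both NP libraries, against 60 in control A and 64 in control B, at least 29.7-fold lower. The granulin gene grn1 had 16 and 23 reads in NP A and NP B, against 416 and 250 in control A and control B, and grn2 had 14 and 7 reads in NP A and NP B, against 190 and 100 in control A and control B. For these 3 genes the controls lay near each other after division by size factors. The lysozyme lygl1 had 47 and 57 reads in NP A and NP B, against 3897 and 512 in control A and control B, and the scavenger receptor marco had 2 reads in each NP library, against 177 in control A and 4 in control B. In the authors' deposited table the falls were -5.80 ± 1.22 for mhc2dab, -3.30 ± 0.70 for grn1 and -4.30 ± 0.77 for lygl1. The actin-binding aif1l and cathepsin ctssb.1 also fell. Of 61 list members with reads, 18 reached the limit on the mean. Genes such as mhc2dab and marco reached it only through their control reads, so the limit favoured falls here too. Summed over the 18 genes, normalised reads were 627 in NP A and 721 in NP B, against 5410 in control A and 2122 in control B; how far fewer macrophages account for this was not tested.

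Chemokine genes also fell where they passed. The chemokine ccl19a.1 had 2 reads in each NP library, against 1499 in control A and 9 in control B, and cxcl18b had 4 reads in each NP library, against 618 in control A and 79 in control B. Both fell, with log2 fold changes of -6.23 ± 1.08 and -5.08 ± 0.88 in the authors' deposited table, and the other 8 of 10 chemokine and cytokine genes did not pass. Of 5 genes on the neutrophil list, lect2l and LECT2 (2 of 2) fell, while cpa5, a carboxypeptidase that the list shares with the digestive enzymes, rose. The first, lect2l, was also named above with the acute phase genes. For both lists the share that fell among all genes described was 2.5%. Whether the calls on the neutrophil list reflect neutrophils was not tested. Named after their values were seen, 2 markers below the limit on the mean differed: mpx passed the authors' threshold as a fall and lyz did not pass. Myeloperoxidase (mpx), the defining enzyme of neutrophils, had 0 reads in both NP libraries, against 43 in control A and 46 in control B. The lysozyme lyz had 13 and 14 reads in NP A and NP B, against 10 in control A and 4 in control B. Their log2 fold changes in the authors' deposited table were -5.37 for mpx (adjusted p = 0.00129) and 1.31 for lyz (adjusted p = 0.958).

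**Figure D3:**
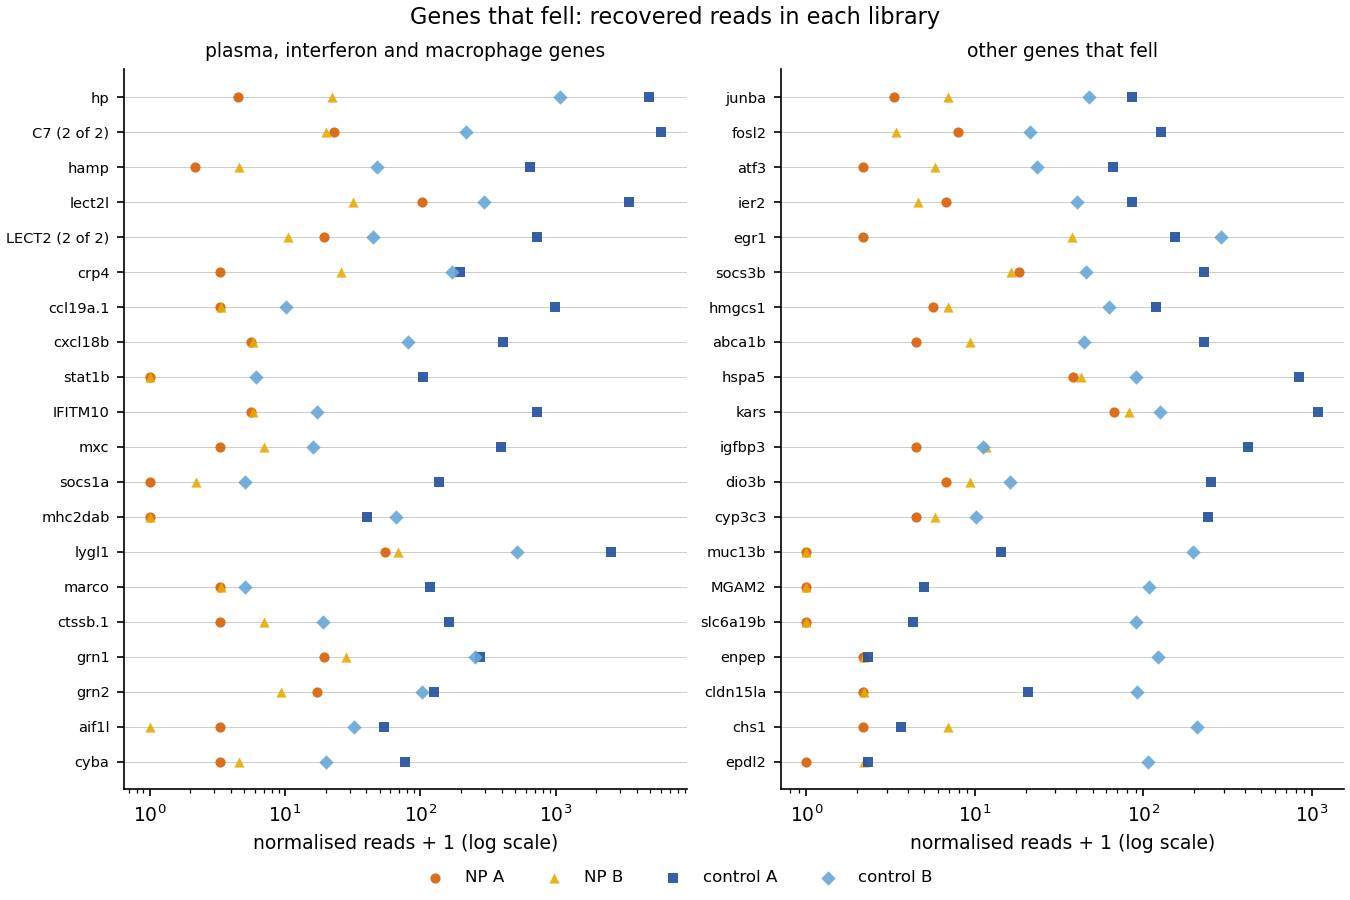
Recovered reads in each library, divided by its size factor, plus 1 (horizontal axes, log scale), for 40 genes that fell: plasma, interferon and macrophage genes (left) and other genes (right). Most have control A as the rightmost point, while the last 7 genes of the right panel have control B there.

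Immediate early genes, which respond within minutes to growth factors and stress, fell in 6 of 25 cases and rose in 0 (list median -1.0, log2, authors' deposited table). Across all genes described, 2.5% fell. The transcription factor egr1 had 1 and 31 reads in NP A and NP B, against 231 and 282 in control A and control B. The AP-1 transcription factor gene junba had 2 and 5 reads in NP A and NP B, against 128 and 46 in control A and control B, and ier2 had 5 and 3 reads in NP A and NP B, against 129 and 39 in control A and control B. The groups did not overlap in any of these genes, and control B was several times above both NP libraries in each. Of 62 list members with reads, 25 reached the limit on the mean. Genes such as junba and ier2 reached it only through their control reads, so the limit favoured falls in this list as well. Falls in the authors' deposited table were -3.12 ± 0.92 for egr1 (adjusted p = 0.0281), -3.53 ± 0.91 for junba (adjusted p = 0.00606) and -3.31 ± 0.90 for ier2 (adjusted p = 0.0126). The stress factor atf3, the AP-1 member fosl2 and the cytokine signal suppressor socs3b fell as well.

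Falls were also seen among secretory pathway, sterol and growth factor genes. The ER chaperone hspa5, known as BiP, had 32 and 35 reads in NP A and NP B, against 1272 in control A and 88 in control B (-3.22 ± 0.85 in the authors' deposited table, adjusted p = 0.00848). It was the 1 of 31 ER chaperone genes to pass, and the list median was -1.01 in the authors' deposited table. Control A exceeded control B in 25 of the 30 recovered members. The sterol synthesis enzyme hmgcs1 had 4 and 5 reads in NP A and NP B, against 179 in control A and 61 in control B (-3.68 ± 0.85 in the authors' deposited table, adjusted p = 0.00127). It was the 1 of 13 cholesterol synthesis genes to pass; both NP libraries were below both controls in 9 of them, a pattern seen in 21.3% of the 3432 recovered genes. Of 12 growth hormone and IGF axis genes, 3 fell (igfbp3, igfbp1a and socs3b) and 0 rose, against 2.5% of all genes described that fell. The IGF-binding proteins igfbp3 and igfbp1a, and the thyroid hormone-inactivating deiodinase dio3b fell, with log2 fold changes of -4.15 ± 1.02, -2.54 ± 0.79 and -3.67 ± 0.97 in the authors' deposited table. For igfbp3 the reads were 3 and 9 in NP A and NP B, against 631 in control A and 10 in control B, so that control B lay next to NP B.

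Other large falls were of genes with assorted roles. The actin regulator eps8l3b had 0 reads in both NP libraries, against 256 in control A and 16 in control B, at least 52.6-fold lower (9.22-fold without control A). The G protein regulator rgs2 had 0 reads in both NP libraries, against 140 in control A and 2 in control B, and the glutathione peroxidase gpx1b had 0 and 1 reads in NP A and NP B, against 114 in control A and 30 in control B. Control A was the highest library in each. The metalloreductase steap4 and the intelectin itln3, whose reads were not recovered, fell, with log2 fold changes of -2.99 ± 0.82 and -4.86 ± 0.78 in the authors' deposited table.

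A smaller set of falls had control B as the highest library. The membrane mucin muc13b had 0 reads in both NP libraries, against 20 in control A and 194 in control B. The maltase-type gene MGAM2 had 0 reads in both NP libraries, against 6 in control A and 106 in control B, and the amino acid carrier slc6a19b had 0 reads in both NP libraries, against 5 in control A and 88 in control B. Control B thus held most of their reads. By the floor of 3 reads over the NP group these genes were at least 59.7-fold, 31.7-fold and 26.3-fold lower. Without control B those bounds were 7.50-fold for muc13b, 2.25-fold for MGAM2 and 1.88-fold for slc6a19b. The peptidase enpep had 1 read in each NP library, against 2 in control A and 119 in control B. For the chitin synthase chs1 the reads were 1 and 5 in NP A and NP B, against 4 in control A and 205 in control B, and without control B its log2 ratio became 0.32, the opposite direction.

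Markers of intestine were examined beside this set. Of 12 intestine markers at a mean of 20 or more, 0 fell and 1 rose (pck1, which liver also makes), with summed normalised reads of 3520 in NP A and 2700 in NP B, against 1038 in control A and 2810 in control B. Among its defining genes, named here after their values were seen, the enterocyte fatty acid-binding protein fabp2 had 0 and 3 reads in NP A and NP B, against 0 in control A and 339 in control B. The brush border peptidase anpepb had 4 and 0 reads in NP A and NP B, against 1 in control A and 165 in control B. Villin (vil1), below the limit on the mean, had 32 reads in control B and 0 in the other libraries. Also below the limit, slc5a1 had 0 reads in both NP libraries, against 5 in control A and 54 in control B. Unlike vil1, slc5a1 passed the authors' threshold as a fall (log2 fold change -4.77, adjusted p = 0.0132, authors' deposited table). While fabp2, anpepb and vil1 were high in control B alone, the list as a whole was mixed. Control B was highest in 7 of its 11 recovered members at a mean of 20 or more, and over 5 times every other library in 4. The apolipoprotein apoa4b.1 had 1929 and 1808 reads in NP A and NP B, against 696 in control A and 1101 in control B, and the chitinase chia.6 had 188 and 62 reads in NP A and NP B, against 584 in control A and 204 in control B. The part of intestinal tissue in the falls was not tested.

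The control libraries lay far apart in many of the falls. Of the 83 genes that fell with recovered reads, 41 had control A over 5 times control B (49.4%), against 143 of all 3432 recovered genes (4.17%). Another 7 had control B over 5 times control A (8.43%), against 248 of all recovered genes (7.23%), and in 16 the controls were within 2 times of each other. Both controls were above both NP libraries in 78 of the 83, a pattern seen in 21.3% of recovered genes, and control B was at least 2 times the NP mean in 76. As these genes were called on the same libraries, such separation was largely set by the call. Some falls, such as stat1b, ccl19a.1 and muc13b, also reached the limit on the mean only through their control reads. The genes that fell held 0.179% of the recovered reads in NP A and 0.175% in NP B, against 9.21% in control A and 1.90% in control B. Genes whose reads were not recovered, some of the falls among them, are left out of these shares. Control A also stood apart in hepatocyte genes that did not pass: hemopexin (hpx) had 2732 and 4527 reads in NP A and NP B, against 7 in control A and 3002 in control B, and the fetuin gene ahsg2 had 163 and 810 reads in NP A and NP B, against 0 in control A and 495 in control B. Without control A the transporter gene slc16a9a and the chromatin gene phf20l1 turned direction, with log2 ratios of 0.13 and 0.94. The part of either control library in the results was not tested beyond these values.

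**Figure D4:**
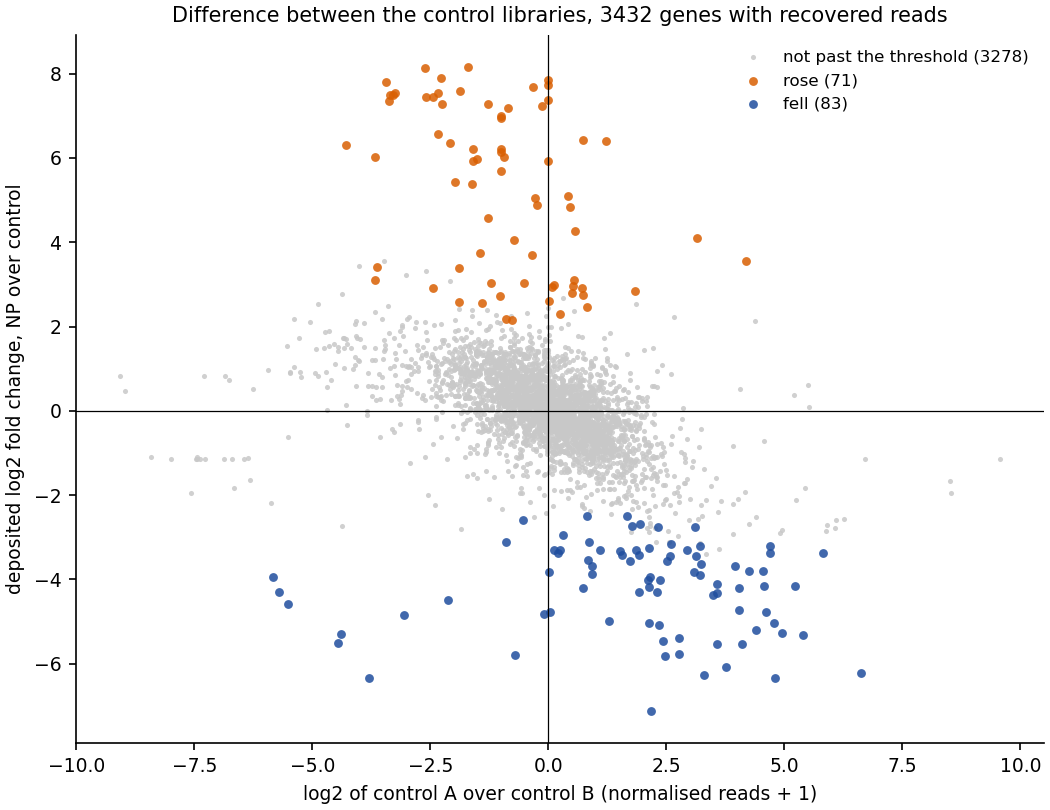
Deposited log2 fold change of NP over control (vertical axis) against the log2 ratio of control A over control B, in normalised reads plus 1 (horizontal axis), for the 3432 genes with recovered reads. Both axes use the control libraries; 71 of the 83 genes that fell lie right of 0, where control A is the higher control.

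Gene groups of basic liver function had few calls. Over all 3555 genes 4.5% were called, so 0 calls in the smaller lists says little about them. In the authors' test, 442 of all 3555 genes had an unadjusted p under 0.05. The share was close to this in proteasome genes, higher in ribosomal protein genes and lower in the respiratory chain. Of 83 ribosomal protein genes, 0 passed the authors' test, while 27 had an unadjusted p under 0.05; the median was 1.14 in the authors' deposited table, and both NP libraries were above both controls in 39 of the 45 recovered members (27.9% over all recovered genes). Of 44 proteasome genes, 0 passed and 6 had an unadjusted p under 0.05; the median was -0.74 in the authors' deposited table, and both NP libraries were below both controls in 29 (21.3% over all recovered genes). Fatty acid and triglyceride synthesis had 0 of 21 past the threshold (list median 1.23, log2, authors' deposited table); fasn, the fatty acid synthase, had 1261 and 652 reads in NP A and NP B, against 52 in control A and 550 in control B. Its NP libraries were above both controls, but control B stood near NP B. From recovered reads the list's median log2 ratio was 1.32, or 0.66 without control A and 2.40 without control B. The respiratory chain, with 102 members, had 0 called, 1 at an unadjusted p under 0.05 and a list median close to that of all genes (0.18 against 0.06, log2, authors' deposited table). Of the 15 genes with the highest means, 0 passed; beside tfa they included apolipoproteins apoa1b (-0.04) and apoa2 (0.86), the uncoupling protein ucp1 (1.32) and the desaturase fads2 (1.86), as log2 fold changes in the authors' deposited table.

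**Figure D5:**
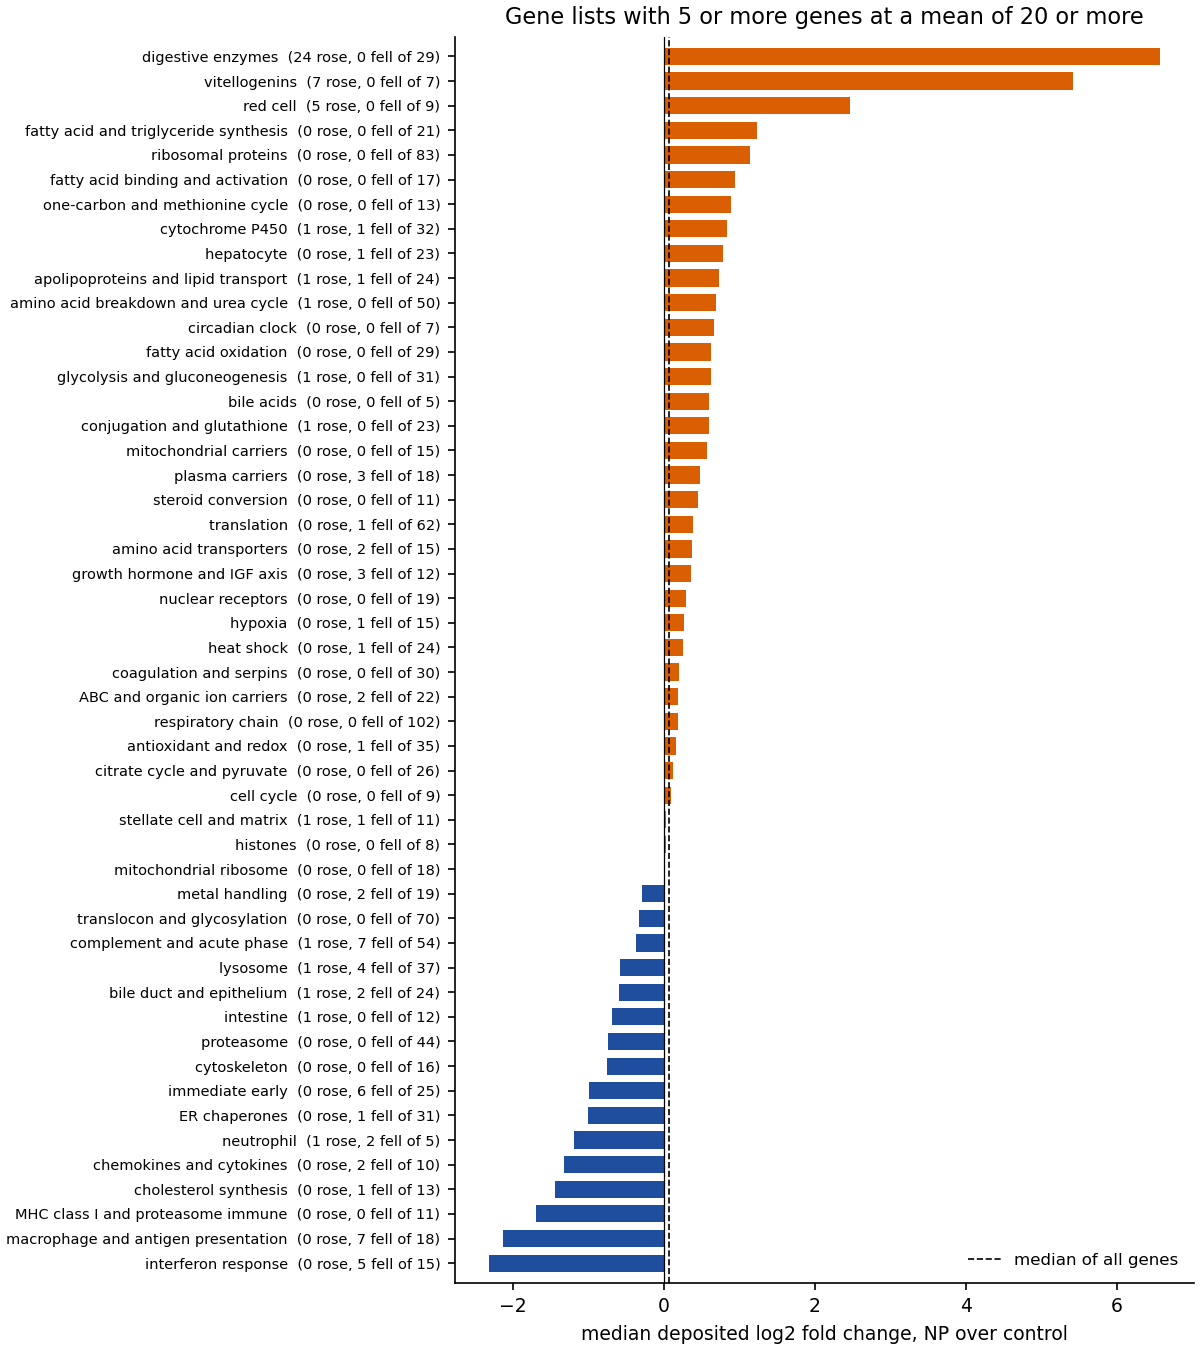
Median deposited log2 fold change of NP over control (horizontal axis) for the 50 gene lists with 5 or more genes at a mean of 20 or more, each label giving the genes that rose and fell; the dashed line is the median of all 3555 genes, 0.06. Digestive enzymes (6.57) and vitellogenins (5.42) are at the top, and interferon response genes (-2.33) at the bottom. Some members of these lists reached the limit on the mean only through the group where they were high.

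The study also exposed males to 1000 nM 17β-estradiol (E2), a natural estrogen, and compared them with the same control libraries, so the comparisons share their controls and the concentrations differ. For vtg2 the authors' deposited tables gave 7.69 in NP and 8.35 in E2, and for nots 6.35 in NP and 7.18 in E2. For prss59.1 the authors' deposited tables gave 8.16 in NP and 4.20 in E2, and for hp -7.11 in NP and -6.73 in E2. For hmgcs1 they gave -3.68 in NP and 1.39 in E2, and for hspa5 -3.22 in NP and 0.96 in E2, in the authors' deposited tables. The difference between the compounds was not tested.

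The calls rest on the authors' test with 2 libraries a group. When the recovered reads of the 3432 genes were tested with limma-voom, 0 genes passed at an adjusted p under 0.05, 319 had an unadjusted p under 0.05 and the smallest adjusted p was 0.196.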

How the data were processed

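Liver RNA of 2 NP and 2 control libraries was compared. Per the submitters' processing notes, reads were handled with TopHat2, HTSeq and DESeq2 on genome build GRCz10; versions and settings are not given in the sources used here. The authors deposited, per the file headers, a table of 32760 rows (31953 gene IDs): a signal (mean normalised read count over 4 libraries), a log2 fold change with its standard error, a score (the Wald statistic), a p-value and an adjusted p-value. The design had planned a test of counts per library; as the table holds none, the authors' deposited test is the main result. Deposited fold changes were smaller than the ratio of recovered means in 114 of 114 called genes with over 3 reads in both groups. The recovery itself discarded solutions whose ratio fell well short of the deposited fold change, so this outcome was partly set in advance.

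Whole reads were recovered by solving each deposited signal for whole-number sums of the libraries' step sizes, jointly with the E2 table, in 17944 of 18067 genes with reads (99.3%). Solved genes held 43.7% of the summed means, as 123 of the 3555 genes, all with means of 395 or more, were not solved. Where the deposited fold change was not near 0, solutions that went against it or fell well short of it were discarded. Both tables taken separately gave the same control reads for 12148 of 12148 genes compared. That comparison took only genes of low mean, below the limit on the mean used here. It therefore did not check the reads of any of the 3555 genes. Folds use reads divided by size factors; a group with 0 reads was set to a floor of 3 reads, and floors cover counting error only. The scripts were tested on simulated data. For the recovery, the simulation left out genes with means as high as those of prss59.1, hp and vtg2. It therefore did not check reads of that size. Current names were matched for 26121 gene IDs.

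The genes named are the 15 largest rises and 15 largest falls outside the digestive enzymes with an informative symbol, the digestive enzymes and vitellogenins, up to 4 members of each of 57 lists by adjusted p (or 2 by p where none passed), and the 15 highest means; others are said to be chosen after their values were seen or belong to counts given in full. Some further called genes are named as examples, and a few genes are not reported here by name. Members and lists were chosen with earlier results of these data known. Alternatives were limma-voom 3.58.1 in R 4.3.3, with the table's size factors or TMM factors (a trimmed mean of log ratios), other thresholds and each library left out. Python 3.11.15 was used.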

Additional observations from a re-analysis of the deposited data

How the results depend on the processing

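No paired analysis was possible because the labels give no replicate numbers and the deposited table holds no value per library. Other thresholds on the authors' values kept all 5 counts (rises, falls, digestive rises, rises outside the digestive enzymes, vitellogenin rises) within 1.5 times, except 31 rises outside the digestive enzymes at an adjusted p under 0.01 and 50 falls at a mean of 50 or more. With limma-voom on the recovered reads, with the table's size factors, with TMM factors and with TMM factors set without digestive enzymes, each of the 5 counts was 0 (unadjusted p under 0.05 in 319, 270 and 283 genes, smallest adjusted p 0.196, 0.224 and 0.193). TMM factors placed the median log2 fold change of the recovered genes at -0.04, against 0.07 with the table's factors. All 71 rises and 83 recovered falls kept their direction, which so small a shift could hardly have changed. With limma-voom and 1 library left out, the lone library being assumed to vary like the other group, rises ranged from 0 to 283, falls from 0 to 206, digestive rises from 0 to 18, rises outside the digestive enzymes from 0 to 265 and vitellogenin rises from 0 to 2. The count was 0 without either NP library, 17 rises and 27 falls without control A (29 genes shared with the authors' 160), and 283 rises and 206 falls without control B (114 shared); the cause was not tested.

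Of 154 called genes with recovered reads, all kept the direction of their fold change with each library left out except chs1 (-5.62 to 0.32, log2, the highest without control B), slc16a9a (-4.57 to 0.13) and phf20l1 (-4.92 to 0.94), the last 2 without control A. Their sizes were less stable: of 83 falls, 67 moved by over 1.5 times without control A (59 of them to a smaller size) and 63 without control B (8 smaller), 17 without NP A and 26 without NP B. Of 71 rises, 42 moved that far without NP A, 45 without NP B (37 smaller), 30 without control A and 41 without control B. Of 50 list medians, 10 moved by over 1.5 times without control A and 15 without control B, against 5 and 3 without NP A and NP B. As checks chosen after seeing the data, every NP library was at least 2-fold from every control in 69 rises (24 digestive, 7 vitellogenin) and 71 falls. The NP mean was at least 2-fold from control B alone in 71 rises and 76 falls, and from control A alone in 71 rises and 81 falls. The genes were called on these same libraries, so such separation was largely set by the call and is no independent support. Depth limits low genes: a group with 0 reads allows up to 3.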
